A study of Homo sapiens with 12 samples.

Results

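The keratin genes were described across ARID1A and H3K4me3 regions of RT112 cells. Members were the protein-coding genes of GENCODE 44 whose symbol is KRT followed by a number, without the keratin-associated proteins, and this gave 55 of 19618 protein-coding genes on chromosomes 1 to 22 and X. Of these, 29 encode type I keratins and 26 encode type II keratins.

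RT112 is a human bladder transitional cell carcinoma line, counted by the study among its lines with wild-type ARID1A, a DNA-binding subunit of the SWI/SNF (BAF) chromatin remodelling complex. The labels name no treatment, and cells were profiled by CUT&RUN, in which an antibody tethers a nuclease that releases the DNA around its target. The 12 samples formed 4 groups of 3 replicates: ARID1A with the Abcam antibody, ARID1A with the CST antibody, H3K4me3, which marks promoters of active genes, and IgG. Each of the first 3 groups was analysed as 1 list of regions that the authors had merged over its replicates, while regions of the IgG control were not analysed here. All results come from 1 cell line and whether replicates were separate cultures is not stated. The lists hold positions without signal, so no replicate error can be given, sequencing depth is unknown, no test over samples was possible, and comparisons below are descriptions of 1 list beside another.

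Keratins form the intermediate filaments of epithelial cells, and each filament is built from pairs of an acidic type I and a basic type II chain. The genes lie in a type I cluster on chromosome 17 and a type II cluster on chromosome 12, with the type I gene KRT18 placed beside KRT8 in the type II cluster. Simple keratins such as KRT8 and KRT18 are made by single-layered and luminal epithelium, KRT5 and KRT14 by basal cells of layered epithelium, stress keratins such as KRT6A, KRT16 and KRT17 by wounded or hyperproliferating epithelium, and hair and root sheath keratins by the hair follicle. Urothelium makes simple and basal keratins in different layers, and KRT20 in its umbrella cells.

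The label of the cells was compared with marker promoters. Regions of both ARID1A antibodies lay at 8 of 10 urothelial marker promoters (38.2% of all genes) and H3K4me3 at 7 of 10 (53.1% of all genes). Among them were GATA3, PPARG, FOXA1 and ELF3, and 3 of the 10 are the keratins KRT8, KRT18 and KRT19. UPK1A and UPK3A, uroplakin genes of the mature urothelium, had no region of any list, and UPK2 had both antibodies without H3K4me3. None of 7 markers of immune, endothelial, muscle and fibroblast cells had a region of any list at its promoter, as 39.7% of all genes had none. These sets are small.

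The sequences that go with the results are shown first, in hg38 (GRCh38) coordinates. The RefSeq promoter table of GRCh38.p14 (300 bases around each start, most of them upstream) matched 34 of the 55 keratins and 15277 of all 19618 genes. The first 3 promoters were taken by rule among the matched members: KRT8 is a member with ARID1A and H3K4me3, KRT5 stands for members with ARID1A without H3K4me3, and KRT20 for simple keratins with no region. KRT31, a hair keratin with no region, was added after its values were seen. The KRT8 entry is for a start 21393 bp upstream of the canonical one, so it shows the internal promoter described below, which has ARID1A and no H3K4me3. Capitals mark every match, on either strand, to 10 short words. Core promoter elements were searched as TATAAA for the TATA box element, as CCAAT for the box of that name and as GGGCGG for the Sp1 element, called the GC box. Words of transcription factor families were TGANTCA for AP-1, CATTCC for TEAD, ACCNGTT for GRHL, CCGGAAG for ETS, AGATAA for the GATA family, TGTTTAC for FOXA and CTTTGA for TCF/LEF, and no word contains another.
KRT8 internal promoter, chr12:52926420-52926719, minus strand: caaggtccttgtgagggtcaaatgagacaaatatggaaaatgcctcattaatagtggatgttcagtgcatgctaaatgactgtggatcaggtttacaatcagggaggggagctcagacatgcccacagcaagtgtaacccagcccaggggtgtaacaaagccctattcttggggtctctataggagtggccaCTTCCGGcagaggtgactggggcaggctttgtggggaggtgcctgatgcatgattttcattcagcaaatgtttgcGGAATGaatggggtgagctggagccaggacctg
KRT5 promoter, chr12:52520345-52520644, minus strand: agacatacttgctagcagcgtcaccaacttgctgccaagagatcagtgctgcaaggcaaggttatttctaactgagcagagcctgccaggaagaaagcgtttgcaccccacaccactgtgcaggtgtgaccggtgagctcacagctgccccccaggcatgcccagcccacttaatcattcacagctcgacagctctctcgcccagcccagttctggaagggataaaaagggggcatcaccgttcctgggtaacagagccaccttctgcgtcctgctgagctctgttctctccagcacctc
KRT20 promoter, chr17:40885193-40885492, minus strand: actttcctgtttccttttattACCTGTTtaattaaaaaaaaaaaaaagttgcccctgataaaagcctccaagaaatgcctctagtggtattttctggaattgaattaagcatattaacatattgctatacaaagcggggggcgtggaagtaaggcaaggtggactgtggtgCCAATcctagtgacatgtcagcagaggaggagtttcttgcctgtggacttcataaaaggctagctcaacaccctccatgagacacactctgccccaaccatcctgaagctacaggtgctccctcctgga
KRT31 promoter, chr17:41397559-41397858, minus strand: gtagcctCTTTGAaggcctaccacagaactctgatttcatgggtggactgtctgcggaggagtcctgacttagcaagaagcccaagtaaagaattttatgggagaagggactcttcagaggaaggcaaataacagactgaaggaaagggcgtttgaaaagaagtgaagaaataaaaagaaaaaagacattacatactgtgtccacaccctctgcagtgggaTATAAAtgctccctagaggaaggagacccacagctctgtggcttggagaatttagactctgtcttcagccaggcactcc

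Of these stretches, KRT31 holds TATAAA 29 bases before its start and CTTTGA 243 bases before it. KRT5 holds none of the 10 words. KRT20 holds CCAAT at 79 and ACCTGTT at 229 bases before its start. The KRT8 stretch holds CTTCCGG, the ETS word on the other strand, 58 bases before the start and GGAATG, the TEAD word on the other strand, 17 bases after it. A match is a description of letters, not a binding site.

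The promoters of keratins carried ARID1A and H3K4me3 less often than promoters at large, and no hair or root sheath keratin carried both antibodies. A promoter was taken as 1 kb on either side of any TSS of a protein-coding transcript, and 1 shared bp counted as overlap. An Abcam region lay at 15 of 55 keratin promoters (46.7% of all genes) and a CST region at 13 (41.9% of all genes). Both antibodies had a region at 12 keratins (21.8%), where 38.2% of all genes had both. Among regions of at least the median width the difference was smaller, with both at 10 of 55 keratins and 21.4% of all genes. H3K4me3 lay at 8 keratins (14.5%), where 53.1% of all genes had it.

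All 8 keratins with H3K4me3, namely KRT7, KRT8, KRT18, KRT19, KRT80, KRT13, KRT15 and KRT17, also had both ARID1A antibodies. Over all genes, 6637 of the 10409 with H3K4me3 had both. All 3 lists thus lay at 8 of 55 keratins (14.5%) and at 33.8% of all genes. Both antibodies without H3K4me3 were seen at 4 of 55 keratins, KRT5, KRT16, KRT23 and KRT78, and at 4.41% of all genes. A single ARID1A antibody was found at 4 of 55 keratins, KRT86, KRT6A and KRT3 with Abcam and KRT24 with CST. It was found at 12.1% of all genes. The remaining 39 of the 55 keratins had no region of any list, a larger share than the 39.7% of all genes without one. Keratins have a median of 1 annotated TSS and all genes of 3, which gives keratins fewer windows. With 1 TSS per gene, both antibodies were at 12 keratins and 35% of all genes at the canonical TSS, and at 12 keratins and 33.9% of all genes at the most upstream TSS. H3K4me3 was then at 7 keratins and 51.4% of all genes, and at 8 keratins and 49.5% of all genes, in the same order.

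By class, both antibodies were found at 4 of 5 simple, 2 of 3 basal, 2 of 5 stress, 1 of 9 suprabasal, 0 of 9 root sheath, 0 of 17 hair and 3 of 7 other epithelial keratins. H3K4me3 was found at 4 simple keratins, at 1 keratin each of the basal, stress, suprabasal and other epithelial classes, and at none of the hair or root sheath classes. Between the chain types, 7 of 29 type I and 5 of 26 type II keratins had both antibodies. The classes were taken from textbook knowledge and are small, so a class count is a list of named genes more than a rate.

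**Figure D1:**
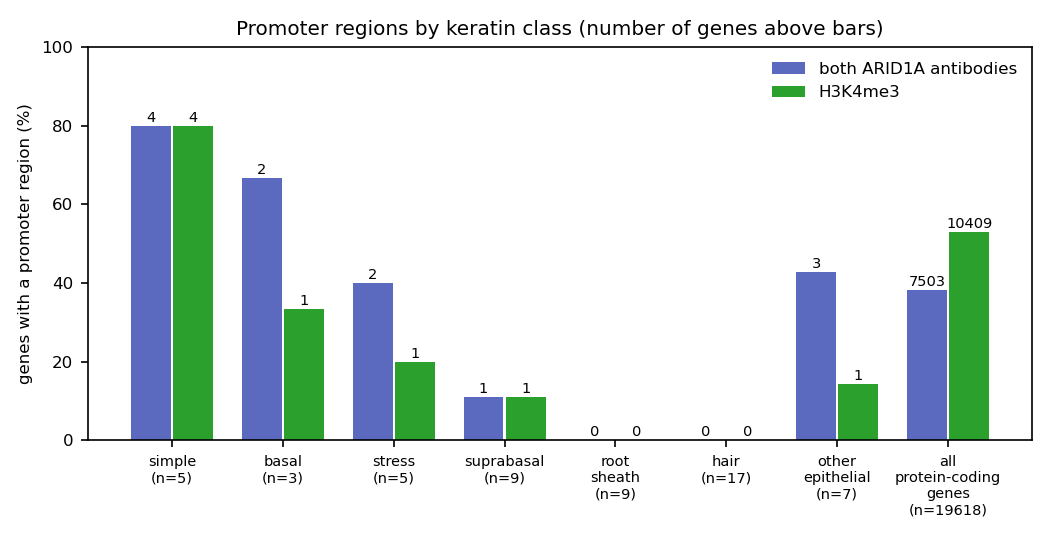
Share of genes (%) with regions of both ARID1A antibodies (blue) or of H3K4me3 (green) within 1 kb of a TSS, by keratin class and, at the right, for all protein-coding genes; the number of genes stands above each bar. Simple keratins reach 4 of 5 in both measures, while hair and root sheath keratins stand at 0.

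Among the simple keratins, the type II gene KRT8 (chr12:52897187-52949954, minus strand), which encodes the main type II chain of simple epithelium, had regions at 3 separate places. At its canonical TSS the Abcam region was 7140 bp wide, wider than 99.8% of the Abcam list, and it spanned CST regions of 2910 and 2913 bp. H3K4me3 covered 5403 bp there. At the internal TSS 21393 bp upstream, whose sequence is shown above, Abcam covered 3680 bp and CST 4357 bp, and no H3K4me3 region lay there. The far starts, 44700 bp upstream of the canonical one, share their regions with KRT18. KRT8 has 10 annotated starts, more chances of a call than most keratins have.

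KRT18 (chr12:52948871-52952906, plus strand) encodes the type I partner of KRT8 and is read in the opposite direction from the adjoining start. Its Abcam region was 6288 bp wide, its CST region 5846 bp and its H3K4me3 region 8371 bp, and each was wider than 99.4% or more of its list. The stretch shared by the antibodies was 5675 bp, of which 5474 bp lay inside H3K4me3. The far starts of KRT8 lie at the same regions, while the canonical and internal starts of KRT8 have regions of their own.

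KRT7 (chr12:52232520-52252186, plus strand), a type II chain of ductal and luminal epithelium, had an Abcam region of 4063 bp, a CST region of 4204 bp and an H3K4me3 region of 7509 bp at its only TSS. KRT19 (chr17:41523617-41528308, minus strand), the smallest keratin and one without a tail domain, had an Abcam region of 3656 bp and a CST region of 3622 bp at its canonical TSS. The H3K4me3 region of KRT19 was 10560 bp wide, wider than 99.8% of the list, and ran on into the neighbouring KRT15. KRT20, the umbrella cell keratin, was the simple keratin without any region: the nearest Abcam region was 16369 bp away, the nearest CST region 16198 bp and the nearest H3K4me3 region 65323 bp. Every 75-base word of the KRT20 promoter window occurs once in the genome (100% unique).

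The basal keratins differed from each other. KRT5 (chr12:52514575-52520530, minus strand), the type II chain of basal cells, had an Abcam region of 3355 bp and a CST region of 2885 bp at its canonical TSS, and a second Abcam region of 1636 bp near an internal TSS. The nearest H3K4me3 region lay 280153 bp from any KRT5 TSS. KRT14 (chr17:41582279-41586895, minus strand), the type I partner of KRT5, had no region at its promoter: the nearest Abcam region lay 5178 bp and the nearest CST region 5188 bp from its TSS, and H3K4me3 34103 bp. The partners KRT5 and KRT14 therefore differed in ARID1A regions at the promoter and were alike in having no H3K4me3 region there.

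KRT15 (chr17:41513745-41522529, minus strand), a type I keratin of basal cells, shared its regions with KRT19. These were an Abcam region of 5678 bp, a CST region of 6896 bp and the H3K4me3 region of 10560 bp. The H3K4me3 region ended 1766 bp upstream of the canonical TSS of KRT15 and reached other KRT15 starts only, so at the canonical TSS alone KRT15 had no H3K4me3 and no basal keratin had it.

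Of the stress keratins, KRT17 (chr17:41619442-41624842, minus strand) had all 3 lists at its canonical TSS, with regions of 2606 bp in Abcam, 2701 bp in CST and 4806 bp in H3K4me3. KRT16 (chr17:41609778-41615899, minus strand), the partner of KRT6, had ARID1A only: Abcam regions of 1031 and 2086 bp and CST regions of 1385 and 2180 bp, at its canonical TSS and at a TSS 3132 bp upstream. The nearest H3K4me3 region to KRT16 was 5099 bp away, the one of KRT17. KRT6A had an Abcam region of 1202 bp, and its nearest CST region lay 2227 bp from the TSS. KRT6B and KRT6C had none within 1 kb, with Abcam 1795 bp from KRT6B and 17432 bp from KRT6C.

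Near-identical copies limit what these calls can show, since reads that did not map uniquely had been removed by the authors. The share of 75-base words that occur once in the genome was 68.7% in the 2 kb window of KRT6C, 72.6% in that of KRT6B and 82.9% in that of KRT6A, against a median of 100% over all keratins. KRT81, a hair keratin, had the lowest share, 60.5%. KRT16, KRT14, KRT17 and KRT34 had 90.2%, 92.6%, 94.0% and 94.6%, and the other 47 keratins had at least 95%. The part of non-unique sequence in the missing regions of KRT6B, KRT6C and KRT81 was not tested.

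Among the suprabasal keratins, KRT13 (chr17:41500981-41505705, minus strand), a type I chain of internal stratified epithelium and of urothelium, had all 3 lists, with regions of 3702 bp in Abcam, 3183 bp in CST and 7623 bp in H3K4me3. KRT4, its type II partner in mucosa, had none within 10 kb. KRT3, a keratin of the cornea, had an Abcam region of 1441 bp that began 737 bp from its TSS, while the nearest CST region lay 1084 bp away, just outside the window. KRT1, KRT2, KRT9, KRT10, KRT12 and KRT76, keratins of epidermis, palm and sole, cornea and palate, had no region at their promoters.

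KRT10, the type I partner of KRT1 in the upper epidermis, was a case just outside the window. An H3K4me3 region of 1938 bp lay 2695 bp and a CST region 2855 bp from its TSS, in the last part of the gene and over annotated starts of KRT10-AS1, a non-coding RNA on the other strand. The nearest Abcam region lay 26232 bp from the KRT10 TSS. Elsewhere in this class, the nearest Abcam region was 3098 bp away for KRT2, 6981 bp for KRT1 and 6755 bp for KRT9.

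Of the other epithelial keratins, KRT80 (chr12:52168996-52192014, minus strand), a type II keratin of many epithelia, had all 3 lists, with regions of 5468 bp in Abcam, 1768 bp in CST and 3849 bp in H3K4me3. KRT23, a type I keratin, had an Abcam region of 1513 bp and a CST region of 890 bp and no H3K4me3. KRT78, a type II keratin, had regions of 1338 bp in Abcam and 1350 bp in CST, which began 608 bp inside the gene from the canonical TSS. KRT24, a type I keratin, had a CST region of 1343 bp alone, 635 bp from its TSS. KRT77, KRT79 and KRT222 had none, and the Abcam region nearest to KRT79 was 2757 bp away.

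The 17 hair and 9 root sheath keratins had 1 call between them. KRT86, a type II hair keratin, had an Abcam region of 4908 bp at 908 bp from an alternative TSS, which lies 25345 bp upstream of its canonical TSS. The midpoint of that region lies in an intron of KRT7, and the region was 26253 bp from the canonical KRT86 TSS. CST regions also overlap it, the nearest of them 1490 bp from the alternative TSS. The call therefore lies nearer to KRT7 than to the main start of KRT86, and which gene it belongs to was not tested. Other regions lay nearer to the canonical KRT86 TSS, in an intron of KRT86 and outside the window. They were an Abcam region of 3843 bp at 3600 bp and an overlapping CST region of 3401 bp at 3818 bp.

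Among the remaining hair keratins, the nearest Abcam regions within 10 kb were at 1332 bp for KRT33A, 1808 bp for KRT36, 2596 bp for KRT37, 5099 bp for KRT33B, 5540 bp for KRT31, 5849 bp for KRT83, 7599 bp for KRT39 and 9447 bp for KRT81. KRT32 had its nearest CST region at 1661 bp and its nearest Abcam region at 26968 bp. KRT34, KRT35, KRT38, KRT40, KRT82, KRT84 and KRT85 had neither antibody within 10 kb. Of the root sheath keratins, KRT74 had its nearest Abcam region at 5974 bp and KRT75 at 8054 bp, and KRT28 and KRT27 their nearest CST regions at 7608 and 9166 bp. KRT25, KRT26, KRT71, KRT72 and KRT73 had neither antibody within 10 kb. Counted from the canonical TSS, an Abcam region lay within 10 kb of 9 of 17 hair and 2 of 9 root sheath keratins, and of 10805 of all 19618 genes.

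Over all 55 keratins, the median distance from the canonical TSS to the nearest Abcam region was 6.98 kb, and over all genes 5.39 kb. For CST the medians were 6.72 kb over keratins and 9.33 kb over all genes, so the antibodies differ in which is nearer. An Abcam region lay within 20 kb of 76.4% of keratins and 63.8% of all genes, and a CST region within 20 kb of 85.5% of keratins and 59.7% of all genes. For H3K4me3 the order was the other way round, with 25.5% of keratins and 59.6% of all genes within 20 kb. The median distance to H3K4me3 was 102 kb for hair and 197 kb for root sheath keratins. Neighbouring keratins share regions and are not independent of each other.

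Regions at keratin promoters were wide. The 19 Abcam regions there had a median width of 3408 bp, where all Abcam promoter regions had 1690 bp. The 16 CST regions had 2897.5 bp, against 1573 bp at all promoters, and the 7 H3K4me3 regions had 7509 bp, against 3066 bp. The narrowest were 1031 bp in Abcam (KRT16), 890 bp in CST (KRT23) and 3849 bp in H3K4me3 (KRT80), so the H3K4me3 regions of keratins were all wider than the median promoter region. Width is the extent of a merged call and not its height.

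Around the canonical TSS, ARID1A regions reached upstream and H3K4me3 regions reached into the gene. For each gene, midpoints are those of the widest region of each list within 1 kb of that TSS. At the 7 keratins with all 3 lists there, KRT7, KRT8, KRT18, KRT19, KRT17, KRT13 and KRT80, the median midpoint stood at -1128 bp from the TSS for Abcam and -1144 bp for CST (negative is upstream), and at 1175 bp for H3K4me3. Over the 6149 genes of the same kind, the medians were -23 bp for Abcam, -49 bp for CST and 294 bp for H3K4me3. The midpoints of both antibodies lay upstream of the H3K4me3 midpoint in 7 of 7 keratins and in 65.1% of those genes.

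Gene by gene, the Abcam midpoint was upstream of the TSS in 7 of 7 keratins (52.8% of all such genes) and the CST midpoint in 6 of 7 (55.1%). KRT8 was the exception, with the CST midpoint 605 bp downstream, and it had a second CST region further upstream. H3K4me3 midpoints lay 311 bp downstream in KRT18, 795 bp in KRT7, 965 bp in KRT80, 1175 bp in KRT17, 1301 bp in KRT8, 2029 bp in KRT13 and 2373 bp in KRT19. None was upstream, where 26.3% of all such genes had an upstream midpoint. Keratins with ARID1A and no H3K4me3 did not share 1 placement. The regions of KRT5 over the canonical TSS began at -2713 bp for Abcam and -2818 bp for CST and lay mostly upstream, but its second Abcam region began at 2925 bp, inside the gene. In KRT78, KRT3 and KRT24 the regions began 608, 737 and 635 bp downstream of the TSS, and in KRT23 the midpoints lay downstream, at 374 bp for Abcam and 499 bp for CST.

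**Figure D2:**
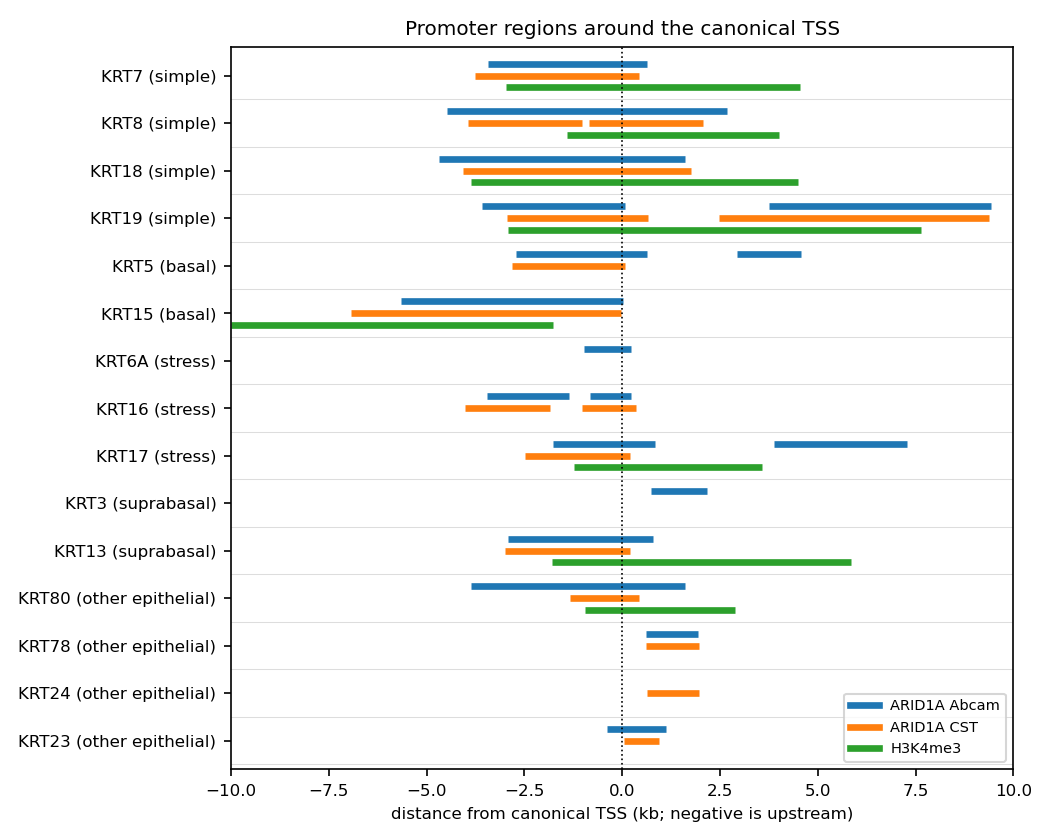
Extent of regions around the canonical TSS (dotted line, kb along the gene, negative is upstream) for the 15 keratins with a region there, coloured by list (Abcam blue, CST orange, H3K4me3 green). At the 7 keratins with all 3 lists there, the ARID1A bars that reach the window around the canonical TSS have midpoints left of that of the H3K4me3 bar. Further downstream ARID1A bars of KRT19 (Abcam and CST) and KRT17 (Abcam) have midpoints right of it. The H3K4me3 bar of KRT15 runs past the left edge, and it does not reach the window around the canonical TSS.

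Across the clusters, ARID1A regions were dense. H3K4me3 regions were few in number, though above the genome in density. The type I cluster, chr17:40644665-41634842 with 10 kb added at each end, held 50 Abcam, 47 CST and 5 H3K4me3 regions in 990 kb. This is 5.05 Abcam regions per 100 kb in the cluster, 1.91 on chromosome 17 and 1.24 over chromosomes 1 to 22 and X. CST regions numbered 4.75 per 100 kb in the cluster, 1.77 on the chromosome and 1.09 genome-wide. H3K4me3 stood at 0.505 per 100 kb in the cluster, 0.71 on the chromosome and 0.322 genome-wide, so it was below its chromosome and above the genome.

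The type II cluster, chr12:52158996-52962906, held 40 Abcam, 39 CST and 4 H3K4me3 regions in 804 kb. Abcam regions numbered 4.98 per 100 kb in the cluster, 1.38 on chromosome 12 and 1.24 genome-wide. CST regions numbered 4.85, 1.22 and 1.09 in the same order, and H3K4me3 regions 0.498, 0.386 and 0.322. The 2 clusters were alike in density although they lie on different chromosomes. Abcam regions covered 9.96% of the type I and 11.8% of the type II cluster, and 2.1% of the genome. H3K4me3 regions covered 2.84% and 3.13% of the clusters in the same order, and 1.06% of the genome.

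**Figure D3:**
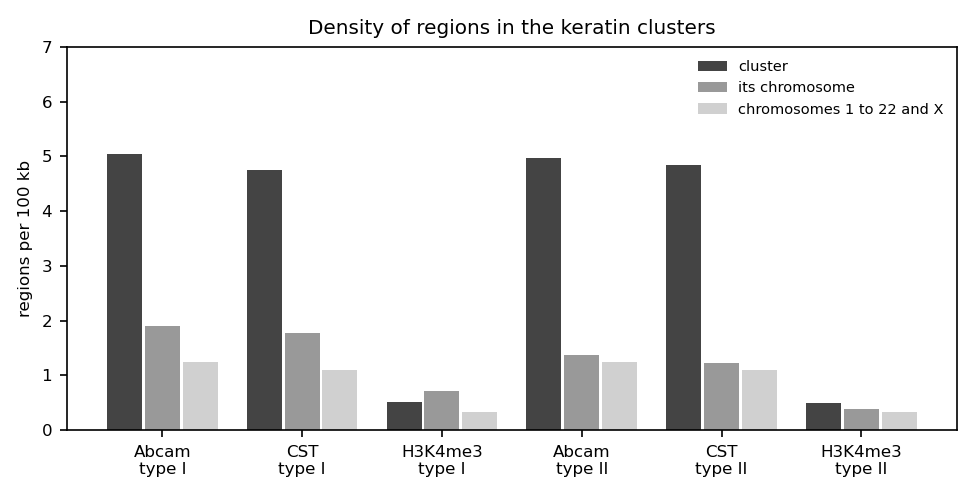
Regions per 100 kb in each keratin cluster (dark), on its own chromosome (grey) and over chromosomes 1 to 22 and X (light), by list. Abcam and CST bars of both clusters lie between 4.75 and 5.05, above their chromosomes at 1.22 to 1.91, while H3K4me3 is near 0.5 in both clusters.

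Most ARID1A regions of the clusters had their midpoint between protein-coding genes. Non-coding genes were not counted in this placement. A region placed between genes can still reach into a gene or lie close to a TSS. Of the 90 Abcam regions, 61.1% had their midpoint between genes and were at no promoter, against 41.1% of the whole Abcam list, and of the 86 CST regions 60.5%, against 40.6%. The share at promoters was 28.9% of the Abcam regions of the clusters and 24.1% of the whole list, and 24.4% of the CST regions in both. H3K4me3 overlapped 11.1% of Abcam regions in the clusters and 20.8% of the whole list. All 4 H3K4me3 regions of the type II cluster lay at keratin promoters. In the type I cluster 3 of 5 did, 1 lay at SMARCE1, a gene at the edge of the cluster that encodes another SWI/SNF subunit, and 1 was the region in KRT10.

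Between genes, 44 Abcam regions of the clusters overlapped a CST region, with a median width of 1879.5 bp. The median distance to the nearest keratin TSS was 8208 bp, and 39 of the 44 lay within 20 kb of one. The 55 keratins lie within clusters of 990 and 804 kb. How near other places in the clusters lie to a keratin TSS was not measured. The 44 regions lay upstream of the nearest keratin TSS in 28 cases and downstream in 16. The widest in the type II cluster, chr12:52213364-52218390, was 5027 bp wide and lay 14853 bp upstream of KRT7. The widest in the type I cluster, chr17:41338730-41342835, was 4106 bp wide and began 7993 bp downstream of the TSS of KRT33A, a hair keratin. A further region of 3516 bp, 16369 bp upstream of KRT20, was the nearest Abcam region to that gene.

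The centres of the widest regions are shown to give the letters under ARID1A away from promoters, chosen after their widths were seen. Capitals mark the same 10 words, and positions are counted from the first base.
type II between-gene centre, chr12:52215727-52216026, plus strand: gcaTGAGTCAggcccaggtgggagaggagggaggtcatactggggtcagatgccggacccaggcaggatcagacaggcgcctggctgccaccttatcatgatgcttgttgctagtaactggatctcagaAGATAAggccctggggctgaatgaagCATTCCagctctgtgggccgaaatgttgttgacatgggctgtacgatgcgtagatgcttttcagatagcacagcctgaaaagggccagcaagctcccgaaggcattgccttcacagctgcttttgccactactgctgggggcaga
type I between-gene centre, chr17:41340633-41340932, plus strand: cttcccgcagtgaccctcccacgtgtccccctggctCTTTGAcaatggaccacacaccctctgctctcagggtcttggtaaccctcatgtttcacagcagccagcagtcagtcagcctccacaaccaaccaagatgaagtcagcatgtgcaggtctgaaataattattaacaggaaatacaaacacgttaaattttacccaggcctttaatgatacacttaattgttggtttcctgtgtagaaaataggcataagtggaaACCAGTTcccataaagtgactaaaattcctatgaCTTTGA

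The type II centre holds TGAGTCA, an AP-1 word, at base 4, the GATA word AGATAA at base 130 and CATTCC, the TEAD word, at base 156. The type I centre holds CTTTGA at bases 37 and 295 and ACCAGTT, a GRHL word, at base 261. Over the central 300 bases of the 70 shared Abcam regions of the clusters, the AP-1 word was in 28.6%, against 27.4% of all 28609 shared regions, and the TEAD word in 27.1%, against 19.1%. The GC box word was in 8.57%, against 19.5%, and the ETS word in 0 of 70, against 3.67%. GATA words were in 11.4%, against 17%, but over the central 500 bases in 28.6%, against 26.3%, so their order turns with the length taken. FOXA words were in 7.14%, against 6.45%.

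Stretches of both clusters had no ARID1A region, and the longest are named here. That keratins inside them lack an ARID1A call follows almost entirely from how the stretches were defined. Their lengths were not compared with stretches elsewhere in the genome, where Abcam regions number 1.24 per 100 kb. The largest in the type I cluster, 149.7 kb, held 13 keratin-associated protein genes and no keratin. Unique sequence was measured in keratin promoter windows only, so the part of non-unique sequence in these stretches was not tested. In the type II cluster, 105.3 kb held KRT77 and KRT76, 95.96 kb held the hair keratins KRT85, KRT84 and KRT82 with KRT75 of the companion layer, and 71.52 kb held KRT72, KRT73 and KRT2. In the type I cluster, 63.37 kb held the root sheath keratins KRT25, KRT26 and KRT27, and 46.29 kb held KRT12 and KRT20. A stretch of 57.11 kb with KRT222 starts at the set end of the cluster, so its full length is not given.

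**Figure D4:**
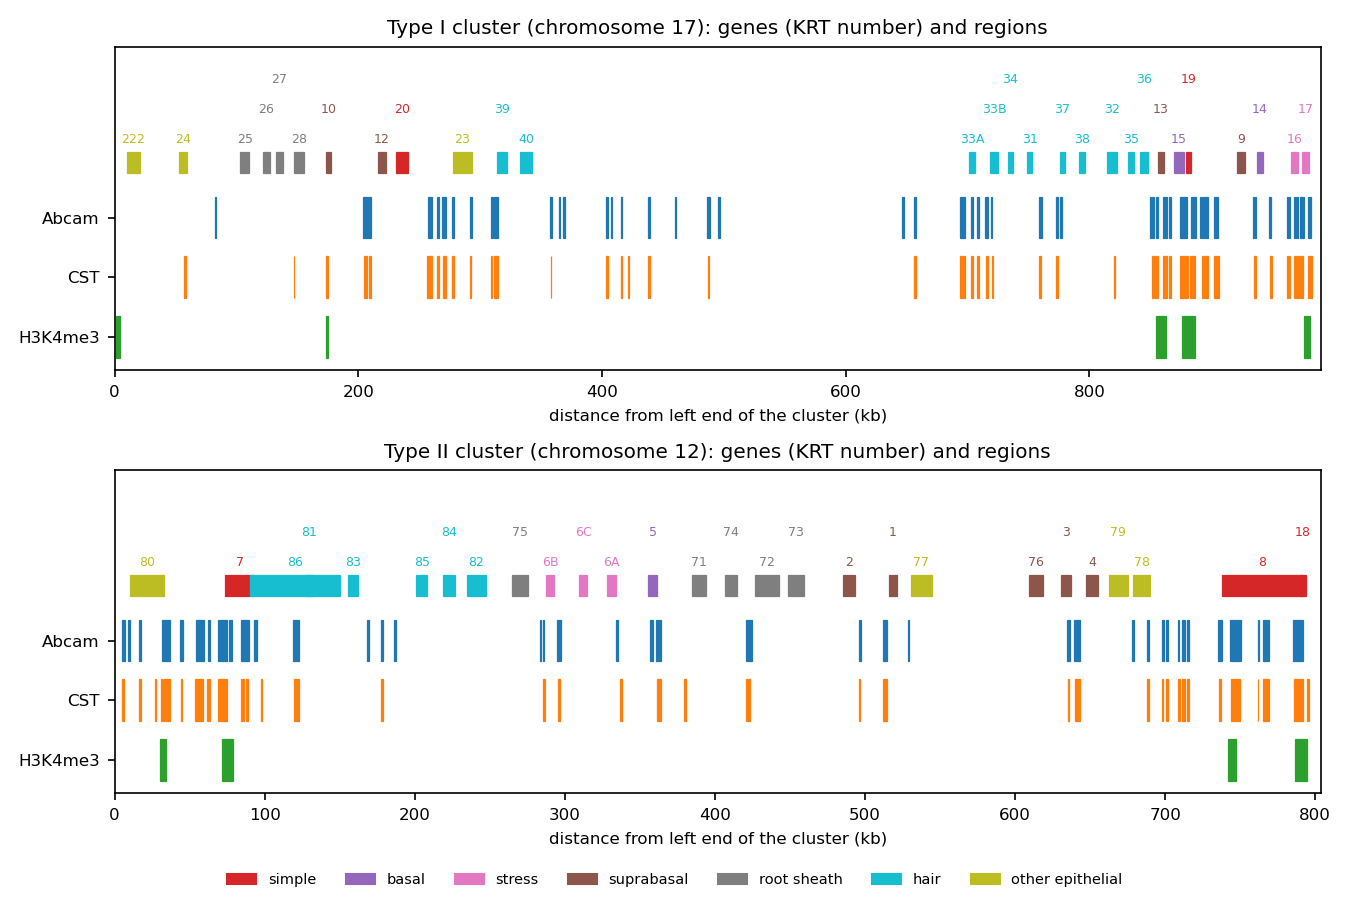
Regions along the type I (top) and type II (bottom) keratin clusters in kb from the left end, with keratin genes as boxes coloured by class and labelled by their KRT number. Abcam (50 and 40 regions) and CST (47 and 39) recur along the clusters and leave the gaps named in the text, and H3K4me3 (5 and 4) is limited to few sites.

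The keratin-associated protein genes encode the matrix of the hair shaft, and 34 of the 94 lie inside the type I cluster between the keratins. Of the 34 in the cluster, 7 had an Abcam region at the promoter and 5 a CST region (46.7% and 41.9% of all genes). Both were at 4 (38.2% of all genes), and none had H3K4me3 (53.1% of all genes), as none of the hair keratins had. The share of unique sequence was not measured for these genes, and reads that did not map uniquely had been removed. Just outside the clusters, EIF1, beyond the type I cluster, had both antibodies and H3K4me3. EIF4B, beyond the type II cluster, had Abcam and H3K4me3, and SMIM41, on the other side, had no region.

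At an overlap of 1 bp, the shares of regions that overlapped the other antibody were close in the clusters and in the whole lists. Of 90 Abcam regions in the clusters, 70 overlapped a CST region (77.8%, exact 95% binomial interval 67.8 to 85.9%), and 76.3% of the whole list did. Of 86 CST regions, 75 overlapped an Abcam region (87.2%, interval 78.3 to 93.4%), and 87.5% of the whole list did. With an overlap of at least 50% of both regions, the CST share was 68.6% in the clusters and 77.5% in the whole list, and among regions of the median width or more it was 90.2% in the clusters and 77.7% in the whole list. The intervals treat regions as independent and cover counting error only. At promoters, the shared stretch took up 94.9% of the Abcam region of KRT7 and 82.9% of that of KRT5, and the Abcam region of KRT80 overlapped 3 CST regions, 1 of them at the promoter.

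The matched keratin promoters were poor in CpG. They include 1 basal, 2 simple and no stress keratins, and none has an H3K4me3 region within 1 kb of the start in the table. The ratio of observed to expected CpG over the 300 bases had a median of 0.14 in the 34 keratins (range 0 to 0.457) and 0.768 over all promoters, and the GC content a median of 45.7%, against 63.0%. The 4 matched keratins with a region of any list within 1 kb of a TSS, KRT8, KRT5, KRT3 and KRT24, had a median ratio of 0.206, and the 30 without had 0.14. The members not matched were KRT80, KRT7, KRT86, KRT81, KRT83, KRT6B, KRT6C, KRT6A, KRT72, KRT1, KRT77, KRT78, KRT18, KRT222, KRT23, KRT13, KRT15, KRT19, KRT14, KRT16 and KRT17. They include most keratins with H3K4me3, so the sequence counts are mainly about keratins without regions.

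The words differed by class. TATAAA was in 20 of the 34 keratin promoters (58.8%) and in 9.65% of all promoters, with 10 of 14 hair and 6 of 8 root sheath keratins. CTTTGA was in 11 of 34 keratin promoters (32.4%) and in 10.8% of all promoters. It was in 9 of 14 hair promoters (64.3%), as in the KRT31 stretch shown above, 1 of 8 root sheath and 1 of 7 suprabasal promoters. AGATAA was in 14 of 34 keratin promoters (41.2%) and in 7.43% of all. By class it was in 6 of 8 root sheath, 4 of 7 suprabasal and 3 of 14 hair promoters. GGGCGG was in 6 of 34 (17.6%), against 59.2% of all. TGANTCA and TGTTTAC were in 0 of 34 keratin promoters, against 5.75% and 2.62%. Lower GC content goes with more matches to words rich in A and T, and its part in these shares was not tested.

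For the remaining words, CCAAT was in 17 of 34 keratin promoters (50%), against 36.5% of all, CATTCC in 4 (11.8%), against 11.7%, and ACCNGTT in 5 (14.7%), against 6.05%. CCGGAAG was in 1 (2.94%), the internal KRT8 promoter, against 14.3% of all.

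**Figure D5:**
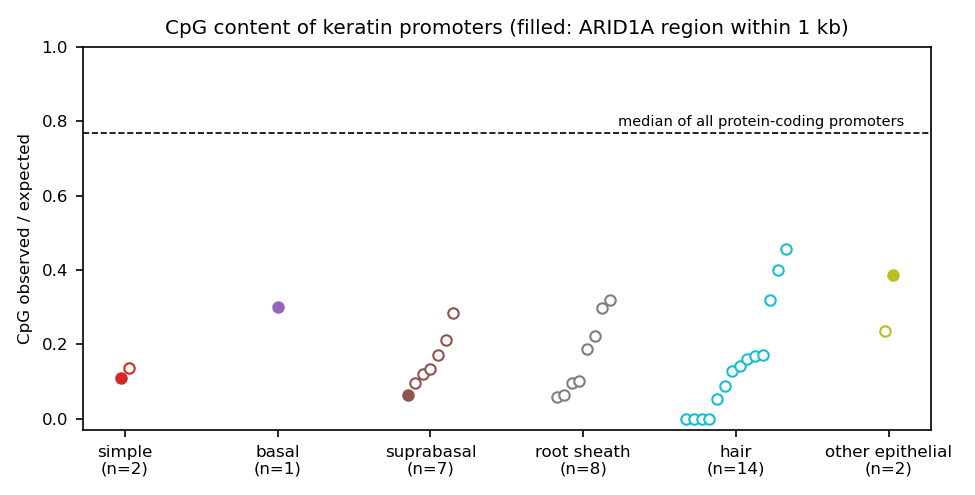
Ratio of observed to expected CpG over 300 bases of promoter for the 34 keratins in the RefSeq table, by class, each circle 1 gene and filled where an ARID1A region lay within 1 kb of a TSS; no stress keratin was matched. All circles lie at or below 0.457, under the dashed line at the median of all promoters, 0.768.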

How the data were processed

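CUT&RUN was done in RT112 cells with a commercial kit and an E. coli spike-in. The authors trimmed reads with cutadapt, aligned them to GRCh38 with bwa-mem2, removed duplicates (Picard) and reads that did not map uniquely (samtools), scaled replicates by spike-in, called peaks with SEACR and merged them over replicates (bedtools). The submitters' processing notes name hg38 and no tool versions. SEACR was run in relaxed mode according to the methods, but the deposited lists are named stringent, which makes the threshold uncertain. The methods also state that only a top share of peaks was kept. A promoter without a region may therefore still carry the protein or the mark.

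The deposited lists hold chromosome, start and end only, without counts, signal or score. Positions are printed counting from 1. Regions outside chromosomes 1 to 22 and X were left out (152 Abcam, 159 CST and 14 H3K4me3). Genes and TSSs came from GENCODE 44. Regions were placed by midpoint unless at a promoter. Intervals are exact (Clopper-Pearson). Overlap counting was tested on simulated data. Scripts used Python 3.11.15, numpy 2.4.6, scipy 1.17.1 and matplotlib 3.10.9.

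Values were given for each keratin with a region within 1 kb of a TSS, and the others were named by class, with distances for those within 10 kb. The members, classes, words and lists were chosen with earlier results of these data known. Alternatives were windows of 500 bp and 3 kb, canonical TSSs, promoter overlap of at least 200 bp, regions of at least the median width, joining of regions under 500 bp apart, a margin of 50 kb, stricter overlap, other classes and other word lengths. Starts of transcripts with incomplete 5 prime ends were left out in an alternative added after seeing the data.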

Additional observations from a re-analysis of the deposited data

How the results depend on the processing

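Of 136 alternative values, 120 stayed within the limits set for an unchanged value. These limits apply to the values of the keratins and do not take in the shares over all genes. An alternative asked Abcam and CST regions at a promoter to overlap each other. It cannot change a count from a single list, so those values, which are among the 120, were unchanged by construction. With a window of 3 kb, CST members numbered 21 (13 at 1 kb) and hair keratins with both antibodies 2 (0 at 1 kb), KRT86 and KRT33A. KRT6B, KRT6A and KRT3 also gained both antibodies and KRT10 gained H3K4me3. At canonical TSSs alone, basal keratins with H3K4me3 numbered 0 (1 with all TSSs), through KRT15. With basal and stress keratins as 1 class, 4 had both antibodies and 2 had H3K4me3, by construction. Regions of the median width or more numbered 28 Abcam and 21 CST in the type I cluster (50 and 47 in all). In the type II cluster they numbered 23 Abcam and 20 CST (40 and 39 in all). KRT78 and KRT23 then lost both antibodies. This left both at 10 of 55 keratins and at 21.4% of all genes, where all regions gave 12 of 55 and 38.2%. The share of keratins was thus much closer to that of all genes. With an overlap of at least 50% of both regions, 65.6% of Abcam and 68.6% of CST regions of the clusters overlapped (77.8% and 87.2% at 1 bp), and 68.1% and 77.5% of the whole lists. With 50-base words, 5 keratins were under 80% unique (3 with 75-base words). In the central 500 bases, counts of shared regions with the CCAAT, AP-1, GATA and TCF/LEF words were 33, 32, 20 and 16 of 70 (20, 20, 8 and 10 in 300 bases).

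No paired analysis was possible because the lists are merged over replicates and hold positions only, and for the same reason no replicate was left out and depth was not compared. Distance to the caller's threshold and the number of replicates behind a region are unknown.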
